A study of Mus musculus with 6 samples.

Results

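The haemoglobin and erythroid genes described here are 8 genes of the red cell lineage, taken by name from the 55536 genes of the count table: the alpha globin genes Hba-a1 and Hba-a2, the beta globin genes Hbb-bs and Hbb-bt, and Alas2, Slc4a1, Klf1 and Gata1. They were read in bulk RNA-seq of 6 orthotopic liver tumours, each grown from HCA-1, a mouse hepatocellular carcinoma line placed under the liver capsule of male C3H mice aged 6 to 8 weeks (1000000 cells per mouse). The Control group holds 3 tumours labelled untreated (replicates 3, 4 and 5), for which no vehicle injection is named. The TSDP group holds 3 tumours (replicates 1, 2 and 5) of mice given 6 intravenous doses, between days 10 and 23, of a nanoparticle that carried DNIC and sorafenib, a kinase inhibitor used against liver cancer. Tumours were analysed on day 24. All groups share the same transplanted line and host strain, and the tumours also hold host cells, including blood.

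Haemoglobin of adult red cells is built from a pair of alpha chains and a pair of beta chains, each holding haem. In the erythroid lineage GATA1 and KLF1 switch on the globin genes together with Alas2, the erythroid form of the first enzyme of haem synthesis, and Slc4a1, the band 3 anion exchanger of the red cell membrane. Young red cells (reticulocytes) leave the marrow with globin RNA still in them, so RNA of a solid tissue carries globin reads from the blood it contains. In bulk tissue, fewer cells of a type and less RNA per cell cannot be told apart.

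The libraries held 32130808 to 38953397 counts. The 18 hepatocyte markers took 0.0135% of the counts in Control 3, 2.64% and 0.438% in Control 4 and Control 5, and 2.17% to 6.41% in the TSDP libraries. Control 3 therefore stood apart from the other libraries in its share of hepatocyte marker RNA, and results that rest on it are given with and without it. Of the 8 genes, all had a count in at least 1 library and 6 passed the low-count filter of the fit. Hba-a2 and Gata1 did not, and are given as counts.

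The coding sequences of the paired globin genes are nearly identical, which bears on the globin counts below, so the stretch where they differ is shown. Exons span 812 and 667 bases for Hba-a1 and Hba-a2, and 768 and 703 for Hbb-bs and Hbb-bt. Only coding bases were compared. Over the 429 coding bases of Hba-a1 and Hba-a2 (99.8% identity) the only difference is C381T, and the longest identical run is 380 bases. Over the 444 coding bases of Hbb-bs and Hbb-bt (99.8%) it is C417T, after an identical run of 416 bases. Positions count from the A of the start codon, and the first letter is that of Hba-a1 or Hbb-bs. The 51-base windows follow, from GENCODE M21 (GRCm38), with the differing base in capitals.
Hba-a1: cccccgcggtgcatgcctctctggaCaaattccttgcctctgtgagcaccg
Hba-a2: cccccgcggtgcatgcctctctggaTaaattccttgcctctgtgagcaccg
Hbb-bs: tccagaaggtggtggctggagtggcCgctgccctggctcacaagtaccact
Hbb-bt: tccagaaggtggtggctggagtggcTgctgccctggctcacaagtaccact
The alpha windows lie at chr11:32284318-32284368 and chr11:32297135-32297185 on the plus strand. The beta windows lie at chr7:103826667-103826717 and chr7:103812658-103812708 on the minus strand. How the authors' counting treated reads that match both copies is not given in the sources used here. The split within a pair is therefore uncertain. The sum over a pair would be too low if such reads were left out. The reference genome carries the Hbb-s haplotype (Hbb-bs and Hbb-bt), whereas C3H mice are known for the Hbb-d haplotype, whose genes Hbb-b1 and Hbb-b2 were not analysed here. The beta counts are thus reads that aligned to the reference haplotype.

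Haemoglobin RNA was present in every tumour and was far above the rest in Control 3. The 4 globin genes summed to 20293, 1539 and 543 counts in Control 3, 4 and 5, and to 1025, 1140 and 835 in TSDP 1, 2 and 5. As shares of all counts these are 0.0624% (95% Clopper-Pearson interval 0.0615 to 0.0632), 0.00479% (0.00455 to 0.00504) and 0.00139% (0.00128 to 0.00152) in the Control libraries. In the TSDP libraries they are 0.00280% (0.00263 to 0.00297), 0.00312% (0.00294 to 0.00330) and 0.00230% (0.00214 to 0.00246). Intervals here cover counting error only, and no test was run on this sum.

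Control 3 was 13.0-fold above Control 4, the next library, and 44.7-fold above Control 5, the lowest. The TSDP libraries lay between Control 4 and Control 5, so the groups overlapped. The Control share averaged 0.0229% ± 0.0343 and the TSDP share 0.00274% ± 0.000414 (SD, n = 3 each). Without Control 3 the Control mean was 0.00309%, so 1 library sets the difference between the means.

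**Figure D1:**
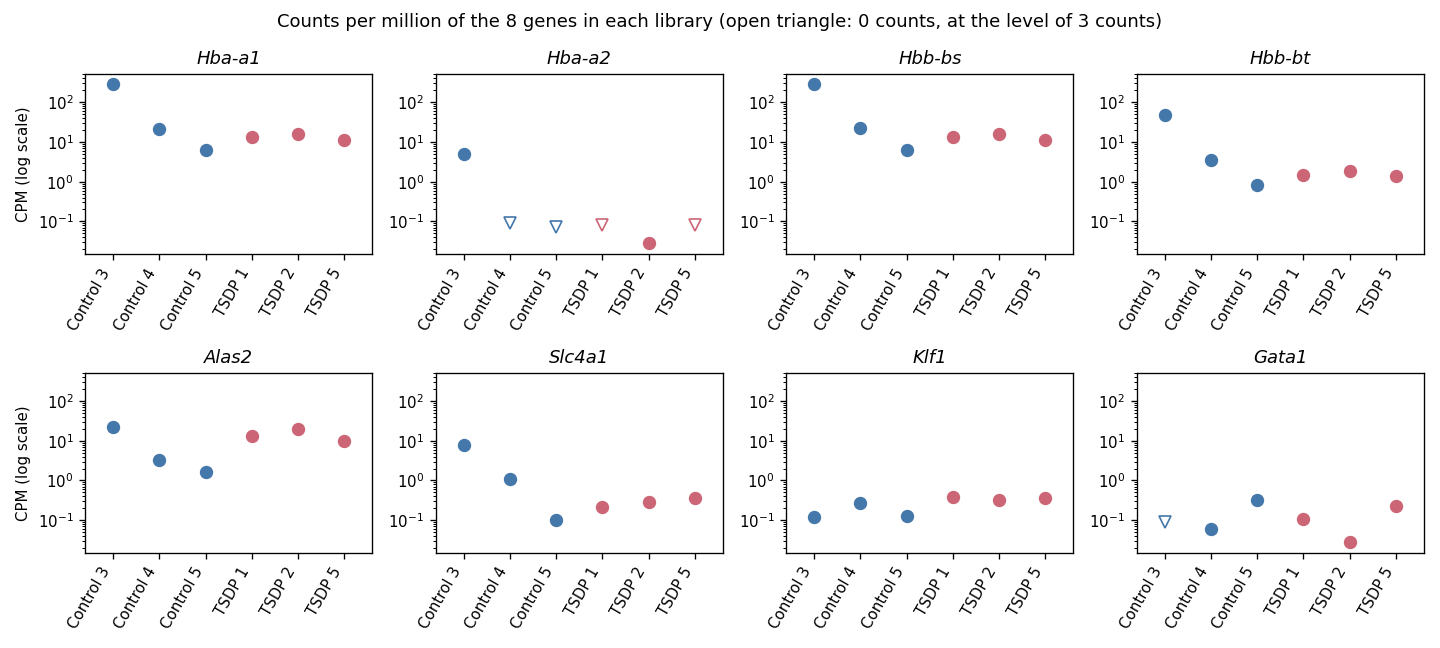
Level of each of the 8 genes in counts per 1000000 counts of the library (CPM, log axis) in the 3 Control (blue) and 3 TSDP (red) libraries, 1 point per library, with open triangles for 0 counts drawn at the level of 3 counts. Control 3 lies far above the other libraries for the globins and Slc4a1, while Alas2 is low in Control 4 and Control 5 only.

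Hba-a1 (ENSMUSG00000069919, chr11:32283511-32284465, plus strand) encodes the alpha chain and gave nearly all alpha counts. Its level was 280.7, 21.3 and 6.26 CPM in Control 3, 4 and 5 and 13.6, 15.7 and 11.0 CPM in TSDP 1, 2 and 5. CPM here use the library size after TMM scaling. The Control libraries enclosed the TSDP libraries, and the group means were 102.7 ± 154.3 and 13.4 ± 2.34 CPM (SD, n = 3 each).

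Hbb-bs (ENSMUSG00000052305, chr7:103826534-103828096, minus strand), a beta chain gene, followed the same order of libraries. Its level was 293.1, 22.3 and 6.39 CPM in the Control libraries and 13.0, 15.4 and 10.9 CPM in TSDP 1, 2 and 5. Per kilobase of exon, Hba-a1 and Hbb-bs were close in level, with 345.7 and 381.7 CPM per kb in Control 3, and 7.71 and 8.32 in Control 5. Hbb-bt (ENSMUSG00000073940, chr7:103812524-103813996, minus strand), the other beta gene, was lower, with 68.4 CPM per kb in Control 3 and 1.20 in Control 5.
The level of Hbb-bt was 48.1, 3.59 and 0.845 CPM in the Control libraries and 1.51, 1.82 and 1.40 CPM in TSDP 1, 2 and 5. The groups overlapped for each of these 3 genes.

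The fold changes of the 3 globin genes that could be fitted were negative, wide in error and not past the threshold. With edgeR's quasi-likelihood test and Benjamini-Hochberg adjustment over 17423 genes, the log2 fold change of TSDP over Control was -2.93 ± 1.32 (SE) for Hba-a1 (adjusted p = 0.398), -3.04 ± 1.32 for Hbb-bs (adjusted p = 0.390) and -3.47 ± 1.40 for Hbb-bt (adjusted p = 0.371). Without Control 3 the log2 fold changes were -0.05 ± 0.50, -0.15 ± 0.51 and -0.50 ± 0.60. With the hepatocyte level as a covariate they were 0.47 ± 1.00, 0.36 ± 1.00 and 0.017 ± 1.14, positive in sign but each smaller than its SE.

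The chains kept nearly 1 ratio while their level varied over 44.7-fold. The alpha genes took 45.6%, 45.1% and 46.4% of the haemoglobin counts in Control 3, 4 and 5, against 48.5%, 47.7% and 47.3% in TSDP 1, 2 and 5. The 2 groups did not overlap (45.7% ± 0.665 and 47.8% ± 0.600, SD, n = 3 each), and single libraries were imprecise except Control 3. The interval of Control 3, 44.9% to 46.3%, excludes the 3 TSDP values, and that of TSDP 1, 45.4% to 51.6%, excludes Control 4. The intervals of TSDP 2, 44.8% to 50.7%, and TSDP 5, 43.9% to 50.8%, cover every Control value. That of TSDP 1 covers the values of Control 3 and Control 5. Hbb-bt took 14.1%, 13.8% and 11.7% of the beta counts in the Control libraries and 10.4%, 10.6% and 11.4% in the TSDP libraries. These groups did not overlap either, with Control 5 close to TSDP 5. The interval of Control 3, 13.4% to 14.8%, excludes every TSDP value, while that of Control 5, 8.23% to 15.9%, spans all 6 values.

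Hba-a2 (ENSMUSG00000069917, chr11:32296489-32297298, plus strand), the second alpha gene, was counted almost only in Control 3. It had 162 counts there, 1 in TSDP 2 and 0 in Control 4, Control 5, TSDP 1 and TSDP 5. In Control 3 it took 1.75% of the alpha counts (95% Clopper-Pearson interval 1.49 to 2.04). In TSDP 2 it took 0.184% (0.00465 to 1.02). Where it was not counted, the limit of 3 counts allows a share of up to 0.432% in Control 4, 1.19% in Control 5, 0.604% in TSDP 1 and 0.759% in TSDP 5. The Clopper-Pearson upper bounds there are 0.530%, 1.45%, 0.739% and 0.930%. The interval of Control 3 lies above each of these. With a 1-base difference in the coding windows shown above, these counts can depend on how shared reads were assigned.

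**Figure D2:**
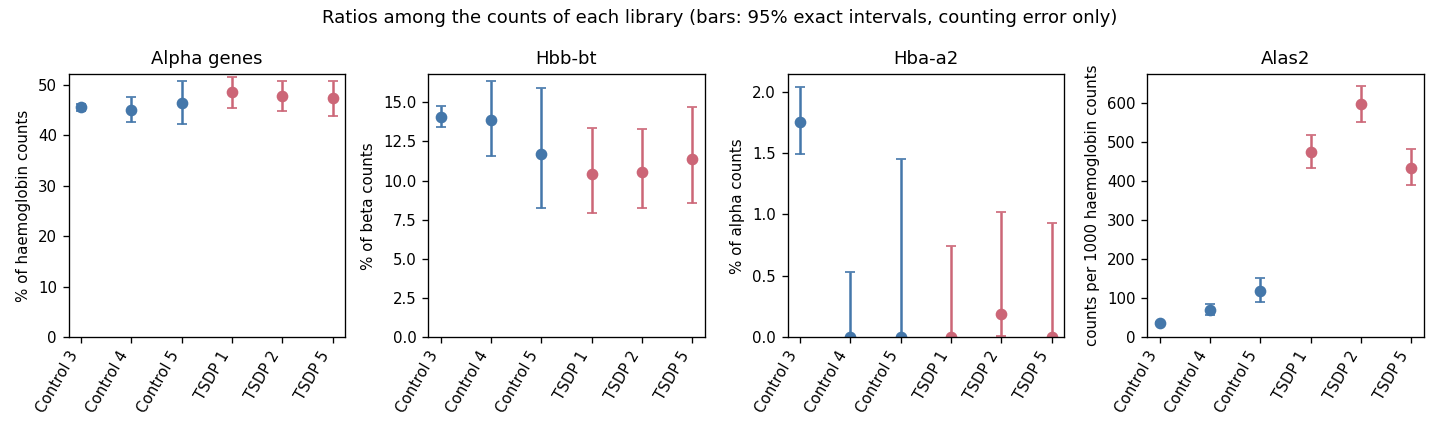
Ratios among counts in each library, Control in blue and TSDP in red, with bars for 95% exact intervals: alpha genes as % of haemoglobin counts, Hbb-bt as % of beta counts, Hba-a2 as % of alpha counts, and Alas2 counts per 1000 haemoglobin counts. The first and second panels hold near 1 level, Hba-a2 is above the others in Control 3, and Alas2 is at 434 to 596 in TSDP against 34.8 to 118 in Control.

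Alas2 (ENSMUSG00000025270, chrX:150547375-150570638, plus strand), which starts haem synthesis in erythroid cells, did not follow the globins. It had 706, 108 and 64 counts in Control 3, 4 and 5, against 485, 679 and 362 in TSDP 1, 2 and 5, or 21.8, 3.31 and 1.59 CPM against 13.3, 19.6 and 10.1 CPM. Control 3 was again the highest library, but TSDP 2 was close to it, and all TSDP libraries lay above Control 4 and Control 5. The log2 fold change was 0.69 ± 0.92 (SE, edgeR adjusted p = 0.761). Without Control 3 it was 2.54 ± 0.46 (adjusted p = 0.543), the same direction and not past the threshold.

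Set against the globins, Alas2 was higher in every TSDP tumour. Per 1000 haemoglobin counts there were 34.8, 70.2 and 118 Alas2 counts in Control 3, 4 and 5, against 473, 596 and 434 in TSDP 1, 2 and 5. The group means were 74.3 ± 41.7 and 501 ± 84.5 (SD, n = 3 each) and the groups did not overlap. No test was run on this ratio, which was formed after the values had been seen. The counting interval of Control 5, the highest Control value, was 90.8 to 151, and that of TSDP 5, the lowest TSDP value, was 390.0 to 481. The hepatocyte share was also higher in TSDP 1 and TSDP 2 than in any Control library. With the hepatocyte level as a covariate, the log2 fold change of Alas2 was 2.98 ± 0.92 (SE, edgeR adjusted p = 0.792), of the same sign as without it. Exons of Alas2 overlap Apex2, a gene on the opposite strand, over 311 bases, and the strand setting of the counting is not given in the sources used here. Apex2 had 257 to 317 counts in the Control libraries and 265 to 329 in the TSDP libraries, ranges that overlap.

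Slc4a1 (ENSMUSG00000006574, chr11:102348824-102366203, minus strand) was ordered much like the globins. It had 259, 36 and 4 counts in Control 3, 4 and 5, against 8, 10 and 13 in TSDP 1, 2 and 5, or 8.00, 1.10 and 0.0994 CPM against 0.219, 0.289 and 0.363 CPM. The TSDP libraries again lay between Control 4 and Control 5. Its log2 fold change was -3.38 ± 1.38 (SE, edgeR adjusted p = 0.372), and -1.03 ± 0.91 without Control 3. With the hepatocyte covariate it was -0.71 ± 1.22. DESeq2 placed it past the threshold (log2 fold change -3.41, adjusted p = 0.0453), as 1 of the 73 of 18366 genes (0.397%) that it called lower. Per 1000 haemoglobin counts, Slc4a1 had 12.8, 23.4 and 7.37 counts in the Control libraries and 7.80, 8.77 and 15.6 in the TSDP libraries, so the groups overlapped on this ratio too.

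Klf1 (ENSMUSG00000054191, chr8:84901928-84905291, plus strand), the erythroid Krüppel-like factor, was near the limit of detection in every tumour. It had 4, 9 and 5 counts in Control 3, 4 and 5, against 14, 11 and 13 in TSDP 1, 2 and 5. The Control mean was 0.175 ± 0.0878 CPM and the TSDP mean 0.355 ± 0.0335 CPM (SD, n = 3 each). Every TSDP library lay above every Control library, which was also so for 13.0% of all genes tested. The log2 fold change was 1.02 ± 0.41 (SE, edgeR adjusted p = 0.371), and 0.56 ± 0.56 with the hepatocyte covariate. Poisson intervals of single libraries overlap widely, with 4.12 to 17.1 counts in Control 4 and 5.49 to 19.7 in TSDP 2. Klf1 was low in Control 3, the library with the most globin RNA.

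Gata1 (ENSMUSG00000031162, chrX:7959260-7978071, minus strand), the GATA factor of erythroid cells, megakaryocytes, mast cells and eosinophils, had no counts in the library richest in haemoglobin. It had 0, 2 and 13 counts in Control 3, 4 and 5, against 4, 1 and 8 in TSDP 1, 2 and 5. The interval of Control 5 was 6.92 to 22.2 counts, and a count of 0 in Control 3 allows up to 3 counts. The groups overlapped, the Control mean being 0.128 ± 0.172 CPM and the TSDP mean 0.121 ± 0.0976 CPM (SD, n = 3 each). Markers of mast cells and eosinophils, which also express Gata1, were a list of 18 genes and summed to 40.5, 80.1 and 297.1 CPM in Control 3, 4 and 5 and 138.4, 123.2 and 204.1 CPM in TSDP 1, 2 and 5. Control 5 and TSDP 5 were the highest libraries for both Gata1 and the sum of this list. In Control 3, 4 of the 18 genes were at 0, but these had few counts in every library (at most 9). Not every gene of the list followed its sum. Ccr3 was highest in TSDP 2 at 2.31 CPM, where Gata1 had 1 count, and Ear2 was highest in TSDP 1 at 34.1 CPM. The mast cell tryptase Tpsab1 had 177, 536 and 4409 counts in the Control libraries and 1240, 792 and 2257 in the TSDP libraries. The part of these cells in the Gata1 counts was not tested.

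**Figure D3:**
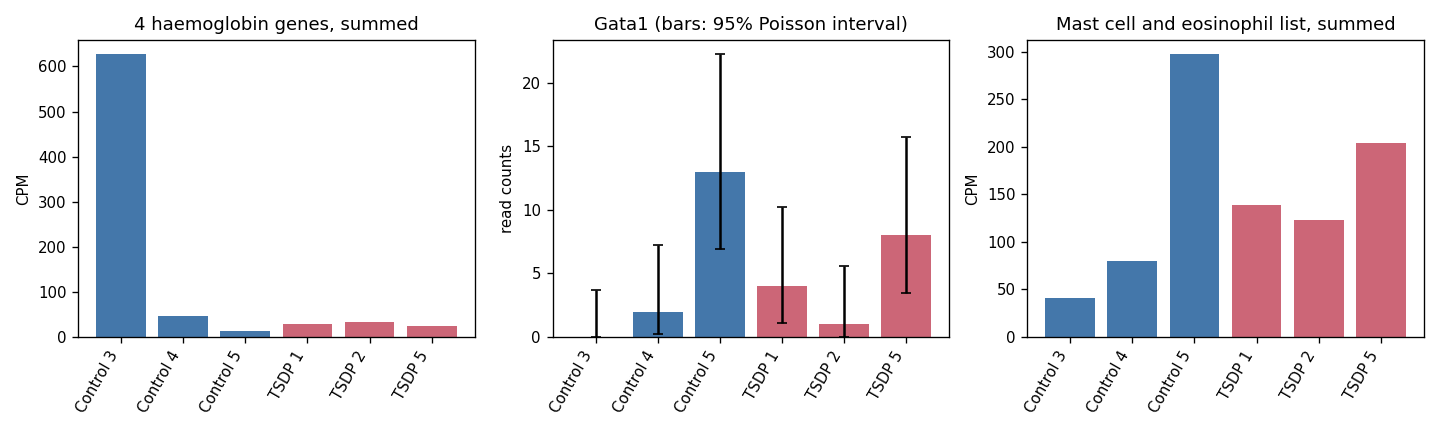
Summed level of the 4 haemoglobin genes (CPM), Gata1 read counts with 95% Poisson intervals, and summed level of the mast cell and eosinophil list (CPM) in each library, Control in blue and TSDP in red. Gata1 is at 13 counts in Control 5, where the list is at 297.1 CPM, and at 0 in Control 3, where haemoglobin is highest.

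None of the 6 fitted genes passed the adjusted threshold of 0.05 with edgeR, nor did any other gene. edgeR called 0 of 17423 genes (0.0%), with 0 of the 6 fitted erythroid genes, and limma-voom also called 0 of 17423 (0.0%). At an unadjusted edgeR p under 0.05 stood 2326 genes, and DESeq2 called 620. At an unadjusted edgeR p under 0.05, Klf1 was on the higher side, as 8.6% of all genes were, and Hbb-bt and Slc4a1 were on the lower side, as 4.75% of all genes were. At this unadjusted level limma-voom had 1 of the 6 (15.2% of all genes) and DESeq2 had 4 (14.5% of the genes it adjusted). For 1 of the 6, Klf1, every TSDP library lay above every Control library, as for 13.0% of all genes tested. For 0 of the 6 did every TSDP library lie below, as for 8.76% of all genes.

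**Figure D4:**
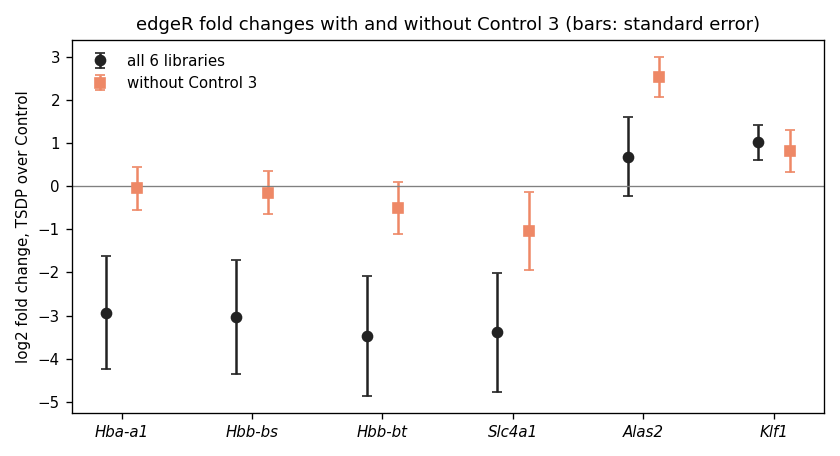
Log2 fold change of TSDP over Control for the 6 genes that could be fitted, with standard errors, from all 6 libraries (black circles) and without Control 3 (orange squares). The globin genes and Slc4a1 move to between -1.03 and -0.05 without Control 3, Alas2 moves to 2.54, and Klf1 stays near 1.

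The proximal promoters are shown for 3 globin genes that kept the same order of libraries and for Alas2, which departed from them. RefSeq (GRCm38.p6) start sites matched 7 of the 8 genes, and each sequence is the 110 bases before the start. Capitals mark CACCC (the motif of KLF factors), CCAAT, GATA (the motif of GATA factors) and TATAA (the TATA box), each searched on both strands.
Hba-a1: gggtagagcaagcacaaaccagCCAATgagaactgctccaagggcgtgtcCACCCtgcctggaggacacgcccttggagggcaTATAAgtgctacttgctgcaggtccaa
Hbb-bs: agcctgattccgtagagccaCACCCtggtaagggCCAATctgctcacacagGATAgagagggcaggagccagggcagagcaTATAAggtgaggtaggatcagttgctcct
Hbb-bt: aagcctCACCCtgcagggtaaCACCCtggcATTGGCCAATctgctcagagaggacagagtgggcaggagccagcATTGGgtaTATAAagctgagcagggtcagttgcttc
Alas2: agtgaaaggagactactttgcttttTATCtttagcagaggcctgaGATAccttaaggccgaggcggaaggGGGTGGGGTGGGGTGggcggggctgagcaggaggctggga
These lie at chr11:32283562-32283671 (plus), chr7:103827929-103828038 (minus), chr7:103813924-103814033 (minus) and chrX:150547307-150547416 (plus). Each window shown lies partly or wholly inside the GENCODE M21 span printed above for its gene. The RefSeq and GENCODE starts thus differ, and bases before the start in RefSeq can lie within the gene in GENCODE. Each of the 4 globin promoters, Hba-a2 included, holds the CACCC motif together with CCAAT and a TATAA match, and Hbb-bs also holds GATA. The Alas2 window holds 3 CACCC matches and 2 GATA matches, and neither CCAAT nor TATAA. Among 32851 promoter windows of the same length, CACCC was found in 29.6%, CCAAT in 20.2%, GATA in 27.3% and TATAA in 10.9%. The matches did not overlap one another, and a match describes letters, not binding.

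Beyond the 8 genes, Control 3 stood out for some other red cell genes, though not for most genes of the red cell lists. Over genes with at least 20 counts in all, 37 of 20695 (0.179%) had a level in Control 3 at least 3-fold above every other library. The 4 globin genes and Slc4a1 were among them, and Hba-a2 reached 20 counts only through Control 3. Of the red cell membrane list, 2 of 17 such genes did so. Of the late erythroid list, 3 of 19 did. Among them, Trim10 had 26 counts in Control 3 against 0 to 6 elsewhere, and Hemgn had 10 against 1 to 3. These genes were picked out after Control 3 was seen to be high, and no test was run on them.

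Markers of other blood cells were mixed in Control 3. Of the platelet and megakaryocyte list 1 of 14 genes stood 3-fold out in Control 3, Tubb1, the platelet beta tubulin, with 23 counts against 0 to 4. Pf4, a platelet chemokine, had 402, 211 and 197 counts in Control 3, 4 and 5, against 183, 334 and 194 in TSDP 1, 2 and 5. Ppbp, another platelet chemokine, was at 2.97 CPM in Control 3 and 0.767 to 1.82 CPM elsewhere, so Control 3 was the highest library for both. Clec1b and Rgs18 of the same list were lowest there, Clec1b with 18 counts against 131 to 481 elsewhere. The neutrophil list summed to 29.9 CPM in Control 3 against 58.9 to 385.9 CPM in the others, but a large part of the difference came from 1 gene, Lcn2, at 3.18 CPM in Control 3 and 24.2 to 335.4 CPM elsewhere. Of the neutrophil proteins, S100a8 was at 3.06 CPM in Control 3, below the other Control libraries and above the TSDP libraries. The collagenase Mmp8 was highest in Control 3 at 6.92 CPM, and no other gene of the list was highest there. Camp, Ltf, Ngp, Mpo, Retnlg and Csf3r were lowest in Control 3, like Lcn2. The lymphocyte list summed to 39.6 CPM in Control 3 against 73.2 to 109.3 CPM, although not every gene of the list was lowest there.

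**Figure D5:**
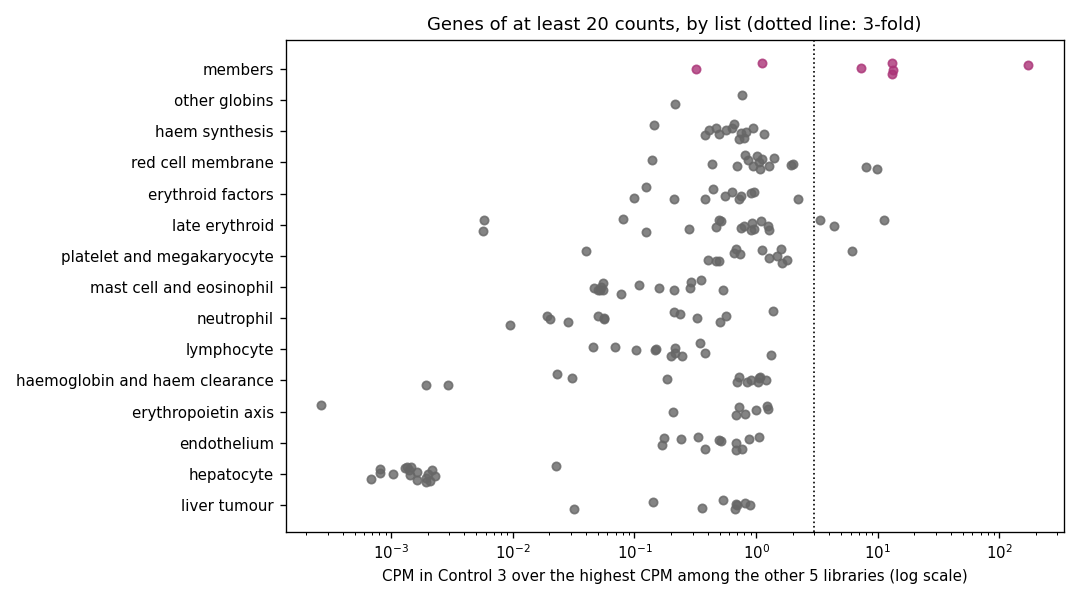
For every gene of at least 20 counts in the lists (1 point per gene, shifted at random in height), the CPM in Control 3 over the highest CPM among the other 5 libraries, on a log axis, with the dotted line at 3-fold; genes at 0 in Control 3 are left out. Right of the line lie 5 of the 8 erythroid genes (purple), 2 red cell membrane genes, 3 late erythroid genes and 1 platelet gene.

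Haem synthesis genes had mostly positive fold changes, none past the threshold. Of the 14 genes of this list, 0 passed the adjusted threshold, 13 had a positive log2 fold change and the median was 0.37, with the median of all genes tested at -0.02. Without Control 3 the median was again 0.37. The 9 genes for which every TSDP library lay above every Control library compare with 13.0% of all genes tested. Fam210b, a mitochondrial protein of erythroid haem synthesis, averaged 74.6 ± 1.90 CPM over Control libraries and 138.6 ± 27.1 CPM over TSDP libraries (SD, n = 3 each, log2 fold change 0.89 ± 0.16, SE, edgeR adjusted p = 0.326). Alas1, the form of the enzyme used outside the erythroid lineage and abundant in hepatocytes, had 471, 985 and 1029 counts in Control 3, 4 and 5, against 2096, 3506 and 1384 in TSDP 1, 2 and 5. Its groups did not overlap (log2 fold change 1.49 ± 0.42, SE, edgeR adjusted p = 0.326). The exception in sign was Slc25a37, the mitochondrial iron importer, at -0.49 ± 0.25 (SE, adjusted p = 0.445). Hepatocyte markers were positive for 18 of 18 genes, at a median of 2.44. Their part in the haem synthesis values was not tested.

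The other erythroid lists were divided in sign. Of 15 red cell membrane genes tested, 7 had a positive and 8 a negative log2 fold change, with a median of -0.01, and -0.06 without Control 3. Xk, a membrane transporter of the Kell complex, had 31, 67 and 44 counts in the Control libraries and 160, 237 and 112 in the TSDP libraries (log2 fold change 1.80 ± 0.43, SE, edgeR adjusted p = 0.326). Kcnn4, the Gardos potassium channel, had the most counts of the list and a log2 fold change of -0.37 ± 0.23. Of 12 erythroid transcription factors 8 were positive, with a median of 0.38. Tal1, a partner of GATA1, was at 0.74 ± 0.30, and Zbtb7a at -0.23 ± 0.15.

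Among 16 late erythroid genes tested, 9 were positive, with a median log2 fold change of 0.19, and 0.10 without Control 3. Car1, the carbonic anhydrase of red cells, had 5, 7 and 2 counts in Control 3, 4 and 5, against 46, 66 and 39 in TSDP 1, 2 and 5. Its groups did not overlap (log2 fold change 3.34 ± 0.53, SE, edgeR adjusted p = 0.326), and its value without Control 3 was 3.43. Like Alas2, Car1 was thus low in Control 4 and Control 5, but unlike Alas2 and the globins it was low in Control 3 as well. Car1 was named for the smallest p of its list. Every TSDP library lay above every Control library for 4 of the 16 genes, as for 13.0% of all genes tested. Every TSDP library lay below for 3 of the 16, as for 8.76% of all genes. Bnip3l, which clears mitochondria from reticulocytes, was at -0.35 ± 0.17. The erythropoietin receptor Epor had 19, 20 and 21 counts in the Control libraries and 29, 41 and 37 in the TSDP libraries (log2 fold change 0.80 ± 0.28, SE, edgeR adjusted p = 0.339). Epo, the hormone, had 0 to 6 counts in the Control libraries and 1 to 12 in the TSDP libraries.

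Genes of the haemoglobin and haem clearance list, which also holds genes of haem breakdown and iron storage, showed no common direction. Of 13 tested, 8 were positive, with a median log2 fold change of 0.07, and 0.14 without Control 3. Hmox1, which breaks down haem, had 2643, 1539 and 1910 counts in Control 3, 4 and 5, against 1807, 2675 and 1400 in TSDP 1, 2 and 5, so Control 3 was close to TSDP 2 and the groups overlapped. Hp and Hpx, the plasma carriers of haemoglobin and haem made by hepatocytes, had 209 and 160 counts in Control 3 against at least 6519 and 7476 in every other library, in the same direction as the hepatocyte markers. Lrp1, a receptor for haem bound to its carrier, was at -0.60 ± 0.19 (SE, edgeR adjusted p = 0.334). In the endothelial list 12 of 12 genes were positive, with a median log2 fold change of 0.61. Their summed level in Control 3, 317.2 CPM, lay between those of Control 4 (333.0 CPM) and Control 5 (257.0 CPM). Single genes differed. Cdh5 was at 93.7, 64.0 and 50.7 CPM in Control 3, 4 and 5, against 74.7, 106.4 and 75.6 CPM in TSDP 1, 2 and 5. Vwf was lowest in Control 3, with 95 counts against 167 to 585 elsewhere. The part of vessel content in the haemoglobin counts was not tested.

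The remaining lists had 0 genes past the adjusted threshold each and are given by sign and median log2 fold change. Platelet and megakaryocyte genes were positive for 4 of 11 tested (median -0.20, and 0.042 without Control 3), with Thbs1 at -0.78 ± 0.37. Mast cell and eosinophil genes were positive for 10 of 13 (median 0.21, and -0.26 without Control 3). Within that list Ccr3, an eosinophil chemokine receptor, was at 2.16 ± 0.63 and Tpsab1 at -0.14 ± 1.03. Neutrophil genes were positive for 3 of 12 (median -0.69, and -1.22 without Control 3), with the alarmin S100a8 at -1.49 ± 0.42. Lymphocyte genes were positive for 11 of 12 (median 0.68, and 0.35 without Control 3), with the T cell co-receptor Cd8a at 0.43 ± 0.32. The erythropoietin axis was divided, with 5 of 9 positive (median 0.10, and 0.020 without Control 3), Epas1, a hypoxia-inducible factor, at 1.19 ± 0.43 and Kitl, the stem cell factor, at -0.57 ± 0.37. Liver tumour markers were positive for 5 of 9 (median 0.0017, and -0.17 without Control 3), with Afp at 0.86 ± 0.31. Of the other globins only Cygb, cytoglobin of stromal cells, could be fitted, at 0.81 ± 0.41, and 0.45 without Control 3. The embryonic and theta globin genes together had 5 counts in Control 3 and 0 or 1 in each other library.

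Across the 6 libraries, Slc4a1 followed the summed haemoglobin level (Pearson r of log2 CPM 0.968, and 0.879 without Control 3). Alas2 followed it less (0.546, and 0.404 without Control 3). Klf1 was at -0.434, and at 0.636 without Control 3, so its sign depended on that library. These points share libraries and depth, and Control 3 weighs on each value. Of 12845 genes ranked by the same measure, with all 8 erythroid genes left out, the 10 most like haemoglobin were Nfib, Hpgds, Eif2ak4, Synj1, Cltc, Nfe2, Rbmx, Ctnnal1, Crocc2 and Lcorl. Nfe2, an erythroid and megakaryocyte transcription factor (r = 0.968, and 0.798 without Control 3), had 75, 30 and 25 counts in Control 3, 4 and 5, against 38, 35 and 30 in TSDP 1, 2 and 5. Nfib, a transcription factor, was at 332.7 CPM in Control 3 and 224.0 to 254.1 CPM elsewhere.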

How the data were processed

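The 8 genes and the gene lists were chosen with earlier results of these data known. The deposited table holds raw read counts per Ensembl gene. The submitters' processing notes name featureCounts 2.0.0, HISAT2 2.1.0, Trimmomatic 0.38, CASAVA, FastQC and MultiQC. For genome build, strand setting and reads with several matches, nothing is given in the sources used here. The 55536 gene IDs equal those of GENCODE M21 (GRCm38), whose coordinates are printed. A second deposited table gives a normalized signal, which equals the authors' counts divided by 1 constant per library, and supplied the gene symbols. Per the labels' protocols, RNA came from RNeasy extraction and a KAPA mRNA kit made the libraries.

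All genes were fitted with edgeR 4.0.16 (R 4.3.3): TMM scaling, filterByExpr with a minimum count of 10, the legacy quasi-likelihood test on group, and a threshold of 0.05 after Benjamini-Hochberg adjustment across 17423 genes. The SE of a log2 fold change is its size over the root of F. DESeq2 1.42.0 and limma 3.58.1 (voom), other scalings and filters, a hepatocyte covariate and leaving out each library were alternatives. The code was tested on simulated data. Only the titles separate the replicates, and the p-values therefore reflect sample-to-sample spread that may be technical. Named genes outside the 8 were the tested gene with most counts and that with the smallest p in each of 14 lists, and the 10 genes most correlated with summed haemoglobin (mean CPM of at least 1). Alas1, Trim10, Hemgn, Tubb1, Pf4, Ppbp, Mmp8, Epor, Epo, Hmox1, Hp, Hpx and Apex2 were added after their values were seen. So were Camp, Clec1b, Csf3r, Ear2, Ltf, Mpo, Ngp, Retnlg, Rgs18 and Vwf. Some genes of these lists are not reported here.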

Additional observations from a re-analysis of the deposited data

How the results depend on the processing

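The count of genes past the threshold was 0 with edgeR and stayed 0 under the other scalings, the stricter filter, limma-voom, bias-adjusted deviances, the hepatocyte covariate and each left-out library. It was 1 with no low-count filter and 620 with DESeq2, and DESeq2 also called 1 of the erythroid genes, Slc4a1, at a log2 fold change of -3.41. Adding the hepatocyte level as a covariate turned the sign of the log2 fold changes of Hba-a1 (0.47), Hbb-bs (0.36) and Hbb-bt (0.017), each then smaller than its SE. The cause was not tested. Of 88 alternative log2 fold changes of the fitted genes, 84 kept their direction and their side of the threshold, but sizes moved. With limma-voom they were -1.29 for Hba-a1, -1.38 for Hbb-bs, -1.63 for Hbb-bt, -1.64 for Slc4a1 and 1.57 for Alas2. The covariate gave -0.71 for Slc4a1, 0.56 for Klf1 and 2.98 for Alas2. Klf1 and Slc4a1 had no value at a minimum count of 30. With the alpha genes alone in the denominator, Alas2 per 1000 counts averaged 162.0 in Control and 1047 in TSDP, and with the beta genes alone 137.2 and 960.2, as both denominators are smaller by construction. At 5-fold in place of 3-fold, 18 genes stood out in Control 3. These 2 alternatives and the list medians without Control 3 were chosen after seeing the data. Leaving out Control 3 turned the median log2 fold change of the platelet list to 0.042, of the mast cell list to -0.26 and of the liver tumour list to -0.17. Library totals of 32130808 or more leave Klf1, Gata1 and Hba-a2 limited by counting error. No paired analysis was possible because the groups share only 1 replicate number, 5.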
